A study of Mus musculus with 16 samples.

Results

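Complement is a cascade of plasma and tissue proteins that marks microbes, immune complexes and cell debris for removal. It starts when the C1q complex binds a target (classical pathway), when lectins bind sugars (lectin pathway) or when C3 activates at a low rate by itself (alternative pathway), and all routes meet at the cleavage of C3. The fragments C3a and C5a act on receptors of myeloid cells, and inhibitors hold the cascade in check. C1q is known as a product of tissue macrophages, while C3, C4 and factor B are made by the liver and also by epithelial and stromal cells under inflammatory signals. The genes described here were 9 complement components and receptors, C1qa, C1qb, C1qc, C3, C4b, Cfb, Serping1, C3ar1 and C5ar1. They were chosen by symbol, through the transcript accession that the array gives for each probe. All 9 were found, on 11 of the 55681 probes, among 26781 genes tested, and all 9 passed the filter on dim probes, being well above background on all 16 arrays.

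RNA came from the dissected bladder body of C57BL/6 mice, which were 12 months (MAT) or 27 to 30 months old (AGED), with 4 males and 4 females of each age and 1 bladder on each 1-colour Agilent array. No group carried a transgene or received a treatment, and the bladder body is a mixed tissue, so that a signal cannot be assigned to a cell type. The tissue label was checked with its defining genes. All 6 urothelial genes, such as the uroplakin genes Upk1a and Upk3a, and all 6 smooth muscle genes, such as Cnn1 and Tagln, passed the filter. Of 4 hepatocyte genes, Alb, Apoa1 and Fgb did not pass it and only Ttr did. Values are scaled log2 signals, the log2 of a probe's brightness less the 75th percentile of its array, so that a difference of 1 is a 2-fold difference. Signals of different genes come from different probes and are not compared in height. All males were on 1 slide and all females on the other, MAT in slide row 1 and AGED in row 2, so that age cannot be told apart from the row, or sex from the slide. The dimmest array was that of AGED male replicate 1, whose 75th percentile (log2) was 9.39 where the rest of its group had 10.13 to 10.24. Results that rest on it are given with and without it. Every direction is AGED minus MAT by the age labels of the arrays. The study names S100a9 among the genes lower in aged mice of both sexes. By these labels its signal was higher in AGED mice, 8.48-fold in males and 3.09-fold in females. The folds that the study lists for S100a9 are of like size, with the direction turned. Which of the directions holds was not settled from the files, and if the age labels were exchanged every sign given here would turn.

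In females the complement genes lay mostly higher with age, and in males they were mixed, but none of the 9 passed the test in either sex. In AGED females 8 of the 9 means were above the MAT means and the median log2 difference was 0.80, where 49.6% of all genes had a higher AGED mean and the median over all genes was -0.003. In males 5 of 9 means were higher, with a median log2 difference of 0.36, where 50.1% of all genes had a higher mean and their median was 0.001. Without AGED male replicate 1 the male median was 0.01, and without AGED female replicate 4 the female median was 0.57 with 8 of 9 means still higher.

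Calls needed a p from limma under 0.05 after Benjamini-Hochberg adjustment over all genes, and a fold of 2 or more. By this rule limma called 0 of 9 members in males, where it called 0.276% of all genes higher and 0.571% lower. In females it also called 0 of 9, against 0.175% higher and 0.0112% lower among all genes. The female background itself rested on single arrays, as the 47 genes called higher became 1 (0.00373%) without AGED female replicate 2 or 4 or MAT female replicate 1 or 4, 8 to 30 without AGED female replicate 1, MAT female replicate 2 or 3 or MAT male replicate 1, 3 or 4, and 111 (0.414%) without AGED male replicate 1. In males the 74 genes higher became 38 without MAT male replicate 3 and 49 without MAT male replicate 1, and the 153 lower became 84 without MAT male replicate 3 and 277 without AGED male replicate 2. At an unadjusted p under 0.05, limma had 1 member higher (C3) and 1 lower (Serping1) in males, against 7.82% and 8.49% of all genes. In females it had 5 higher (C1qa, C1qb, C4b, Cfb and C5ar1) and 1 lower (Serping1), against 4.67% and 5.88%. The methods' t-test with no adjustment and the same fold limit called Cfb and C5ar1 in females and 0 members in males. Over all genes it called 271 higher and 122 lower in females, and 185 and 311 in males. After adjustment it called 0 members in both sexes, with 1 gene higher and 0 lower in females and 0 genes in males. All 4 AGED arrays lay above all 4 MAT arrays for 4 of the 9 members in females, against 5.02% of all genes, and for 0 of 9 in males, against 3.91%. All AGED females lay below all MAT females for 0 of 9, against 5.78% of all genes. The members were chosen with earlier results of these data known, so that the shares over all genes are no test of them.

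**Figure D1:**
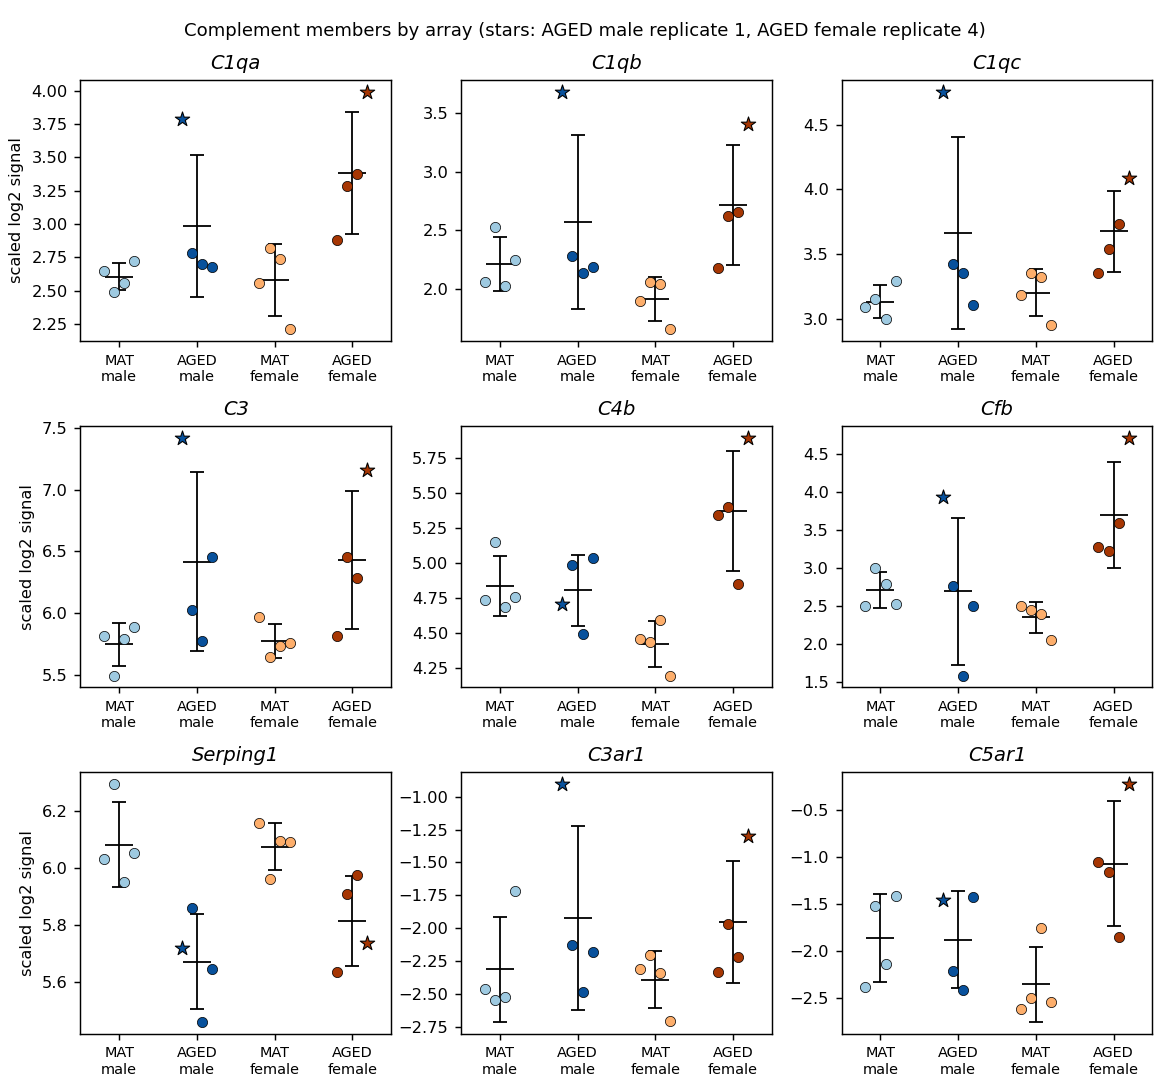
Scaled log2 signal (y axis) of the 9 complement genes on each of the 16 arrays, by group (x axis). Circles are single arrays, stars are AGED male replicate 1 and AGED female replicate 4, and lines with bars are the mean ± SD of 4 arrays. C1qa, C1qb, C4b and Cfb of the AGED females lie above all MAT females, and AGED male replicate 1 stands above the other AGED males for the C1q chains.

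For orientation, stretches of the RefSeq promoters (GRCm38.p6) follow for the C1q chains with an entry, C1qb and C1qc, and for C3, on which the pathways meet. Each runs 5′ to 3′ from 250 bases before to 50 bases after the annotated start, on the minus strand. C1qb, C1qc and C1qa follow each other on chromosome 4 with 0 other annotated genes between neighbours. Capitals mark matches on either strand to a loose NF-kB pattern, GGG and CC with any 5 bases between them, and overlapping matches run together.
C1qb, chr4:136886151-136886450: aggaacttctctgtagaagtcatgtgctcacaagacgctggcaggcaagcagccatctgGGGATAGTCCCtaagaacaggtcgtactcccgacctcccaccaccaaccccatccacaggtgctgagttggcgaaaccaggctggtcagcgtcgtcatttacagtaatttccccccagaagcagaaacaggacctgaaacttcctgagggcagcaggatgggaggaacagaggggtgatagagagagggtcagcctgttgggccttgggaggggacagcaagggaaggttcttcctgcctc
C1qc, chr4:136892865-136893164: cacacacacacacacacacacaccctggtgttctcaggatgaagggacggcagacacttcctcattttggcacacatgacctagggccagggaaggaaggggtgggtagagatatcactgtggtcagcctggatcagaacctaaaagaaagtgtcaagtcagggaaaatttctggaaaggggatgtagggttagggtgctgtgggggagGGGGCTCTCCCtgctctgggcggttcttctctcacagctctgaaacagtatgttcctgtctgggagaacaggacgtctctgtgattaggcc
C3, chr17:57228087-57228386: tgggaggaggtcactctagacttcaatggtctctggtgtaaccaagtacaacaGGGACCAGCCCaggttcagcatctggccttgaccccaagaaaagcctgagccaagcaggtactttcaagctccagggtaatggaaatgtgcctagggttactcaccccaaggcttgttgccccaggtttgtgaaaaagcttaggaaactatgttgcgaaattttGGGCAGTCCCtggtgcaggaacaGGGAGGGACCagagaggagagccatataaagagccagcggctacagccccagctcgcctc
This pattern was in all 3 of these windows and in 50.8% of all 32851 promoters of this length. Of the other members with a promoter entry, C3ar1 had 1 match and C5ar1 had 0. C3 had 4 matches, of which overlapping ones share bases, and C1qb and C1qc had 2 each. The core of interferon-stimulated response elements, GAAA and again GAAA with any 2 bases between, was in 0 of the 5 members with a promoter entry (C1qb, C1qc, C3, C3ar1 and C5ar1) and in 3.44% of all promoters. TTCNNNGAA, a STAT site pattern, was also in 0 of 5 and in 8.3% of all. TATAAA was in the windows of C3 and C3ar1 and in 13.6% of all. A match is a string of letters in the reference and was not tested as a site.

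The first component, C1q, is built of the A, B and C chains encoded by C1qa, C1qb and C1qc, and it starts the classical pathway. The signals of C1qa in MAT females were 2.56, 2.82, 2.74 and 2.21, and in AGED females 2.88, 3.29, 3.37 and 3.99. Each AGED female array thus lay above every MAT female array, though not under quantile normalization, a 75th percentile over probes well above background on all arrays, or normexp background correction. The log2 difference of C1qa was 0.80 (standard error 0.26, 1.74-fold, limma adjusted p = 0.286), and it missed the threshold. In males C1qa was at 2.65, 2.49, 2.56 and 2.72 on the MAT arrays and at 3.79, 2.78, 2.70 and 2.68 on the AGED arrays. Replicate 1 of the AGED males stood 1 unit or more above its group and the other 3 lay close to the MAT males. The male difference of C1qa was 0.38 (standard error 0.26, limma adjusted p = 0.478), and 0.12 without that array.

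C1qb, the B chain, had the same shape. Its MAT female signals were 1.90, 2.06, 2.04 and 1.66 and its AGED female signals 2.18, 2.62, 2.65 and 3.40, again with no overlap. The difference was 0.80 (standard error 0.31, adjusted p = 0.388 from limma). MAT males had 2.06, 2.53, 2.02 and 2.25 and AGED males 3.68, 2.28, 2.14 and 2.19, so that only AGED male replicate 1 left the MAT range. The male difference of 0.36 (adjusted p = 0.593 from limma) became -0.01 when that array was left out.

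C1qc, the C chain, differed less in females. It was at 3.19, 3.35, 3.32 and 2.95 in MAT and at 3.35, 3.54, 3.73 and 4.09 in AGED females, where the lowest AGED array met the highest MAT array. C1qc of AGED females exceeded that of MAT females by 0.47 in log2 (standard error 0.28, limma adjusted p = 0.588). In males it was at 3.09, 3.15, 3.0 and 3.29 in MAT and at 4.76, 3.43, 3.35 and 3.11 in AGED arrays. The groups overlapped, and the difference of 0.53 (standard error 0.28, adjusted p = 0.361 from limma) was 0.16 without AGED male replicate 1.

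The 3 chains followed each other from array to array. After subtracting each group's mean, Pearson's r over the 16 arrays was 0.93 for C1qa with C1qb, 0.93 for C1qa with C1qc and 0.94 for C1qb with C1qc. Without AGED male replicate 1 these were 0.88, 0.91 and 0.89. The values are descriptions, since arrays share brightness and scaling. By the same measure the genes most like C1qa over all genes tested were Gm7609 (r = 0.940), Pld4 (0.932) and Vav1 (0.931). Without the 2 arrays farthest from the median of C1qa, these were 0.865, 0.816 and 0.781.

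C1q chains are known macrophage products, so the macrophage gene list is given beside them. Of its 11 genes, 10 were tested and 0 were called in either sex. In AGED females 9 of the 10 means were above those of MAT females, with a median log2 difference of 0.34 and a range of -0.08 to 1.73, and in males 5 of 10 were, with a median of -0.06. The mean scaled log2 signal over those 10 genes ranged from 0.952 to 1.2 in MAT males and from 0.672 to 1.94 in AGED males, with AGED male replicate 1 at 1.94. It ranged from 0.834 to 1.14 in MAT females and from 1.23 to 1.98 in AGED females, with AGED female replicate 4 at 1.98. Csf1r was the 1 gene with a lower mean in AGED females. AGED male replicate 1 and AGED female replicate 4, highest for the C1q chains, were thus also highest for this list. They were highest for the smooth muscle list too, at 7.27 and 7.29, where the next AGED male and AGED female were at 7.13 and 7.11. On the macrophage list the next AGED male and AGED female were at 1.08 and 1.24. For the urothelial list they were not highest, at 5.75 and 5.76. For the fibroblast list AGED female replicate 4 was highest, at 6.17, while AGED male replicate 1, at 5.29, lay below all MAT males (5.58 to 5.72). Which of these lists the C1q values follow was not tested. Csf1r, the receptor for macrophage colony-stimulating factor, differed by -0.08 in females (standard error 0.19, adjusted p = 0.936 from limma), and Mrc1, the mannose receptor, by 0.18 (standard error 0.20, adjusted p = 0.821). The part of macrophage content in the C1q values was not tested, and in a bulk sample more cells of a type and more RNA per cell cannot be told apart.

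**Figure D2:**
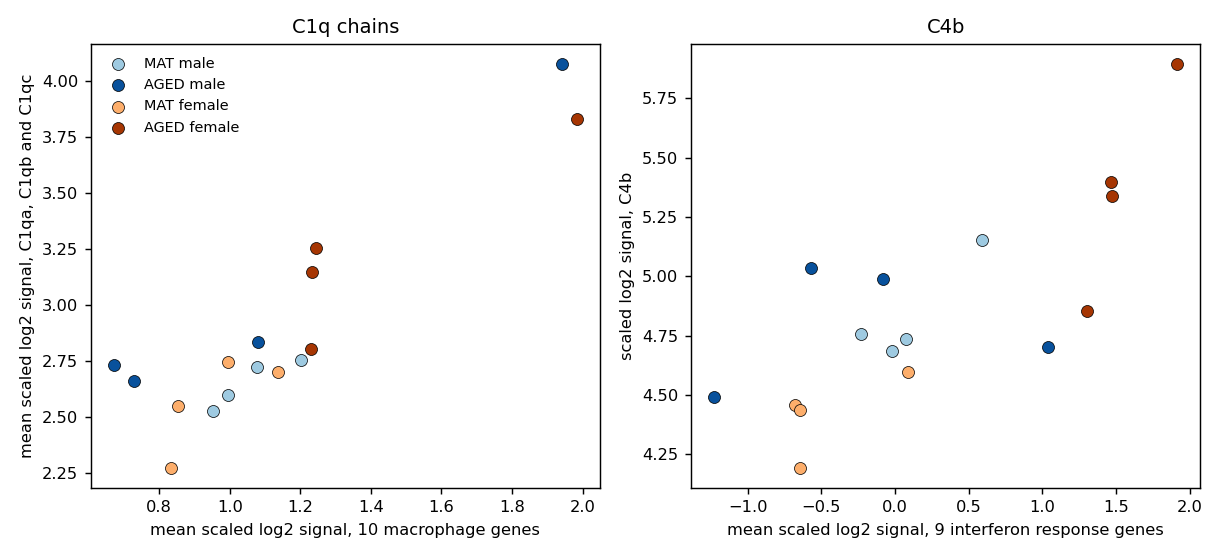
Left, the mean scaled log2 signal of the 3 C1q genes (y axis) against that of 10 macrophage genes (x axis), and right, the scaled log2 signal of C4b (y axis) against the mean of 9 interferon response genes (x axis), 1 point for each of the 16 arrays, coloured by group. AGED male replicate 1, at 1.94 on the left x axis, and AGED female replicate 4, at 1.98, lie apart from the other 14 arrays, and on the right the AGED females lie between 1.30 and 1.91 on the x axis.

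C4b, the fourth component, carries the classical and lectin pathways to C3. It was at 4.46, 4.43, 4.60 and 4.19 in MAT females and at 5.34, 5.40, 4.85 and 5.89 in AGED females. No AGED female array came as low as a MAT female array. On the log2 scale C4b differed by 0.95 (95% interval 0.53 to 1.37, 1.93-fold), with a limma adjusted p of 0.0740, the lowest of the 9 members in either sex. The adjusted p was 0.0406 without AGED female replicate 3, where the difference was 1.12 and C4b was called. It was 0.0471 when AGED male replicate 1, through which the pooled variance is set too, was left out. There the difference stayed at 0.95, under the 2-fold limit, and C4b was not called. The adjusted p ranged from 0.00904 to 0.271 over all alternatives tried, and 1 of the 34 called C4b. In males C4b was at 4.73, 5.15, 4.69 and 4.76 on MAT and at 4.70, 4.99, 4.49 and 5.04 on AGED arrays. The groups overlapped, and the difference was -0.03 (95% interval -0.45 to 0.39, adjusted p = 0.959 from limma). C4a, a close relative of C4b, had no matched probe, and how far the C4b probe also reads C4a was not tested.

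Interferon response genes were also higher on the AGED female arrays. All 9 tested genes of the 10 on that list lay higher in AGED females with no overlap, against 5.02% of all genes. The list was chosen with earlier results of these data known, so that the share over all genes is no test of it. Limma called 5 of them (Irf7, Ifit1, Ifit3, Oasl1 and Usp18, named because they were called), against 0.175% of all genes called higher. The number called was 0 without AGED female replicate 2 or 4, without MAT female replicate 1 or 4 and with the replicate block. It was 1 without AGED female replicate 1 or MAT female replicate 2, 2 without MAT male replicate 3, 3 without AGED male replicate 2 or 4 or MAT male replicate 1 or 4, and 8 without AGED male replicate 1. Their mean ranged from -0.682 to 0.0908 in MAT females and from 1.30 to 1.91 in AGED females, and from -0.232 to 0.590 in MAT males and from -1.23 to 1.04 in AGED males, where 0 were called. Isg15, a ubiquitin-like protein induced by interferon, differed by 2.53 in females (adjusted p = 0.0740 from limma) and Oas1a, a sensor of double-stranded RNA, by 2.53 (adjusted p = 0.177). The part of this response in the C4b values was not tested. The genes most like C4b within groups were Ufm1 (r = 0.889), Rhoc (0.888) and Cd34 (0.865), and without the 2 arrays farthest from the median 0.816, 0.794 and 0.737.

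C3, the component on which all pathways meet, was at 5.97, 5.64, 5.74 and 5.76 in MAT females and at 5.81, 6.46, 6.29 and 7.16 in AGED females. Replicates 2, 3 and 4 of the AGED females exceeded all MAT females, and replicate 1 did not. For C3 this gave a female log2 difference of 0.65 (standard error 0.31, adjusted p = 0.480 from limma), and 0.41 without AGED female replicate 4. In males C3 was at 5.82, 5.49, 5.79 and 5.88 in MAT and at 7.42, 6.02, 5.77 and 6.45 in AGED arrays. AGED male replicate 1 was the highest of all 16 arrays, and AGED male replicate 3 lay within the MAT range. The male difference of 0.67 (standard error 0.31, limma adjusted p = 0.301) was 0.34 without AGED male replicate 1.

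C3 had a second probe, A_55_P2038525. It differed by 1.19 in males and 0.81 in females, each with an exact two-sided permutation p of 0.0571, where the smallest p that 4 against 4 arrays allow is 0.0286. Both probes pointed the same way in both sexes. On the second probe AGED male replicate 1 was at 6.66 and the other AGED males at 4.32, 3.78 and 4.72, against 3.69, 3.48, 3.91 and 3.63 in MAT males. The male difference on this probe was 0.60 without AGED male replicate 1, and the female one 0.51 without AGED female replicate 4. Within groups the genes most like C3 were Rassf4 (r = 0.970), Dnaaf3 (0.951) and Plbd1 (0.941), and 0.924, 0.885 and 0.884 without the 2 farthest arrays.

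Factor B, encoded by Cfb, supplies the protease of the alternative pathway that cleaves C3. Cfb had the largest female difference of the 9 members. MAT females were at 2.5, 2.44, 2.39 and 2.05 and AGED females at 3.27, 3.22, 3.59 and 4.71, all above the MAT females. Cfb thus differed by 1.35 on the log2 scale (95% interval 0.49 to 2.21, 2.55-fold, limma adjusted p = 0.247), and 1.01 without AGED female replicate 4. With arrays weighted by their quality the adjusted p was 0.0297. In AGED males Cfb spread widely, at 3.93, 2.77, 1.58 and 2.5, around MAT male values of 2.5, 3.0, 2.79 and 2.52. AGED males held both the highest and the lowest male array, and the difference was -0.01 (95% interval -0.87 to 0.85, adjusted p = 0.994 from limma). Leaving out AGED male replicate 1 or 3 moved it to -0.42 or 0.36.

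Serping1 encodes the C1 inhibitor, which blocks the proteases C1r and C1s and those of the lectin pathway. It was the only member whose AGED mean was lower in both sexes. MAT males were at 6.03, 6.30, 5.95 and 6.05 and AGED males at 5.72, 5.86, 5.46 and 5.65. All AGED males lay below all MAT males, which was so for 1 of 9 members against 4.06% of all genes. The male log2 difference of Serping1 was -0.41 (95% interval -0.67 to -0.15, limma adjusted p = 0.106). In females Serping1 was at 6.16, 5.96, 6.10 and 6.09 in MAT and at 5.64, 5.91, 5.98 and 5.74 in AGED arrays, with AGED replicate 3 inside the MAT range. The female difference was -0.26 (standard error 0.12, adjusted p = 0.464 from limma). A second probe of Serping1, A_51_P376238, differed by -0.20 in males and -0.04 in females, with exact permutation p = 0.371 and 0.429, so that the 2 probes differed in size. Under normexp background correction the male difference was -0.22 on the tested probe, with the groups overlapping, and 0.06 on the second probe.

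The anaphylatoxin receptors C3ar1 and C5ar1 bind C3a and C5a and sit on myeloid cells. Both were dim, below the 75th percentile on every array, which gives negative values. C3ar1 was at -2.31, -2.21, -2.34 and -2.71 in MAT females and at -2.33, -1.97, -2.22 and -1.30 in AGED females. Replicates 2 and 4 of the AGED females lay above the MAT range, and C3ar1 differed by 0.44 (standard error 0.32, limma adjusted p = 0.684). Without AGED female replicate 4 this was 0.22. In males it was at -2.46, -2.55, -2.53 and -1.72 in MAT and at -0.90, -2.13, -2.49 and -2.18 in AGED arrays. The groups overlapped, and the difference of 0.39 (adjusted p = 0.561 from limma) was 0.05 without AGED male replicate 1.

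C5ar1 was at -2.62, -2.49, -1.76 and -2.54 in MAT females and at -1.06, -1.16, -1.85 and -0.23 in AGED females. AGED replicate 3 lay just below MAT replicate 3, and the other 3 AGED arrays lay above all MAT arrays. The log2 difference was 1.28 (95% interval 0.55 to 2.01, 2.42-fold, limma adjusted p = 0.184), and 0.0498 was the adjusted p with array weights. In males C5ar1 was at -2.38, -1.52, -2.14 and -1.42 in MAT and at -1.45, -2.22, -2.42 and -1.43 in AGED arrays. The ranges were nearly the same, and the difference was -0.01 (95% interval -0.74 to 0.72, adjusted p = 0.989 from limma). C5ar1 is abundant on neutrophils, and the mean of 7 tested neutrophil genes ranged from -2.10 to -1.63 in MAT and from -1.44 to -0.774 in AGED females. In males it ranged from -2.02 to -1.31 in MAT and from -1.46 to -0.413 in AGED arrays. There limma called S100a8 and S100a9 higher (named because they were called), against 0.276% of all genes. Without MAT male replicate 3 or 4 it called 1 of them. Of the 7 genes 3 had a higher mean in AGED males, with a median log2 difference of -0.01, and 6 in AGED females, with a median of 1.13. Csf3r, the receptor for granulocyte colony-stimulating factor, differed by -0.04 in males and 0.09 in females (adjusted p = 0.893 and 0.858 from limma), and Elane, neutrophil elastase, by -0.26 and -0.88 (adjusted p = 0.732 and 0.381). The mean of the list was higher in AGED arrays with no overlap in females and with some overlap in males, and its part in the C5ar1 values was not tested.

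**Figure D3:**
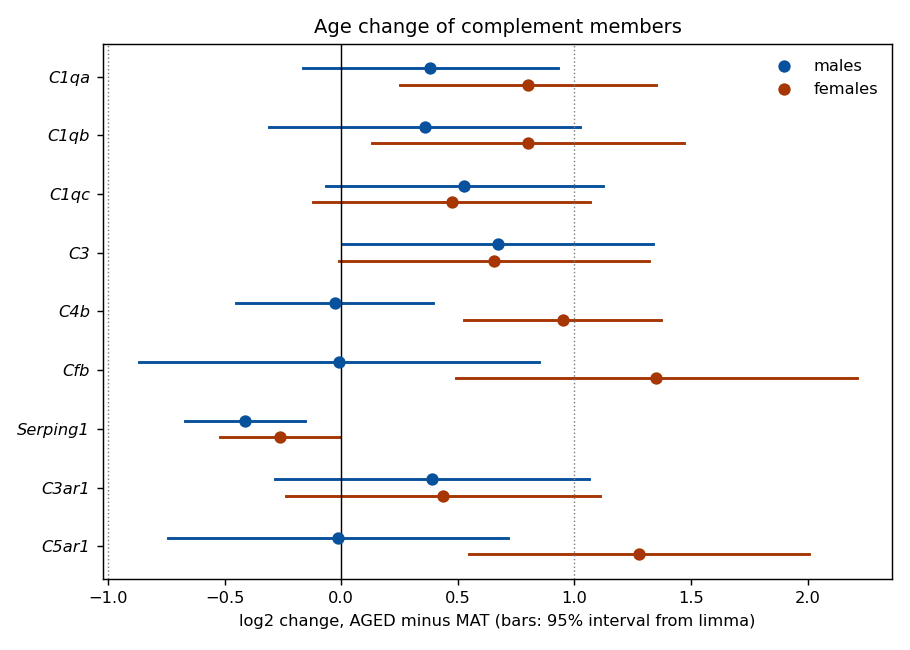
Log2 difference AGED minus MAT (x axis) of the 9 complement genes (y axis) in males and females, as points with 95% intervals from limma. Dotted lines mark 2-fold. C4b, Cfb and C5ar1 lie at 0.95, 1.35 and 1.28 in females and at -0.03, -0.01 and -0.01 in males, while the C3 points of the sexes, at 0.67 and 0.65, nearly coincide.

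Whether age acted differently in the sexes was tested directly, as the male minus the female age difference, with no fold limit. Limma called 0 of 9 members, against 0.149% of all genes. At an unadjusted p under 0.05 it had 3 of 9 on the negative side (C4b, Cfb and C5ar1), against 5.23% of all genes, and 0 on the positive side, against 4.66%. The value was -0.98 for C4b (95% interval -1.58 to -0.38, limma adjusted p = 0.218). For Cfb it was -1.36 (95% interval -2.58 to -0.15, adjusted p = 0.445 from limma) and for C5ar1 -1.29 (95% interval -2.32 to -0.26, adjusted p = 0.369 from limma). Without AGED male replicate 1 these adjusted p were 0.170, 0.0974 and 0.224, so that a sex difference in the age change of these genes did not pass the test with or without that array.

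Single arrays set much of the spread, and a mouse cannot be told apart from the brightness of its array. The 75th percentile (log2) of AGED female replicate 4 was 10.04, where the other AGED females had 10.41 to 11.06. AGED female replicate 4 was the highest AGED female for 8 of the 9 members, all but Serping1, and AGED male replicate 1 the highest AGED male for 6, namely C1qa, C1qb, C1qc, C3, Cfb and C3ar1. C4b and C5ar1 were highest in AGED male replicate 4 instead. Within groups C4b and C5ar1 followed each other with r = 0.741 and C1qa and C3ar1 with r = 0.898, whereas C1qa and C4b had r = 0.240 (0.795, 0.831 and 0.394 without AGED male replicate 1). These are descriptions over 16 arrays.

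The rest of the pathway was taken from a list of 43 further complement genes, 33 of which were tested. C4a and C7 had no matched probe, and the lectin Mbl1 and the pore components C8a, C8b and C9 were among the 8 whose probes did not pass the filter. In males 1 of the 33 was called higher and 1 lower, against 0.276% and 0.571% of all genes. In females 1 was called higher and 0 lower, against 0.175% and 0.0112%. The median log2 difference of the 33 was 0.05 in males and 0.06 in females. The genes of the list thus lay near the median of all genes, while a receptor and a lectin were called.

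Vsig4, the complement receptor CRIg through which tissue macrophages take up C3b-coated particles, rose in both sexes. MAT males were at -1.18, -0.23, -1.02 and -0.43 and AGED males at 2.29, 0.79, 1.45 and 1.41. MAT females were at -1.94, -1.61, -3.12 and -2.76 and AGED females at -0.24, -0.44, -0.15 and 0.40. The ages did not overlap in either sex, and limma gave log2 differences of 2.20 in males and 2.25 in females (4.60-fold and 4.75-fold, standard error 0.36 for each, adjusted p = 0.00684 and 0.0281). The female call was lost without any 1 of 6 female arrays, AGED replicates 1, 2 and 4 and MAT replicates 1, 3 and 4, with adjusted p of up to 0.128. The male minus female difference was -0.05 (95% interval -1.13 to 1.04).

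Colec10, the liver collectin CL-L1 that can start the lectin pathway, fell in males. MAT males were at -2.60, -3.12, -2.42 and -2.48 and AGED males at -4.16, -3.69, -4.16 and -4.74, well above background on 3 of the 4 AGED arrays. The log2 difference was -1.53 (standard error 0.33, limma adjusted p = 0.0315), and the call was lost without AGED male replicate 3 or 4 or MAT male replicate 1, 3 or 4, with adjusted p of 0.054 to 0.096. In females Colec10 differed by 0.10 (standard error 0.33, adjusted p = 0.960 from limma), and the test of the sex difference gave -1.63 (adjusted p = 0.224).

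The other genes of the list that the rule named did not pass the test. C6, the first pore component after C5, differed by 1.10 in males (adjusted p = 0.134 from limma) and 0.05 in females. Cfi, the protease factor I that degrades C3b, had -0.79 in males and 0.50 in females (adjusted p = 0.0702 and 0.412 from limma), and the difference between the sexes was -1.29 (adjusted p = 0.106). Fcna, a ficolin of the lectin pathway, had 0.64 in males and 0.83 in females, and its partner protease Masp2 had -0.61 and -0.67, with 2 of 4 AGED male arrays well above background. Cr2, the receptor for C3d on B cells, had -0.51 and -0.66. All 6 of these Fcna, Masp2 and Cr2 values had adjusted p above 0.25.

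Partners of the members did not pass the test either. C2, which pairs with C4b, differed by 0.07 in males and 0.36 in females (adjusted p = 0.870 and 0.482 from limma). Cfd, factor D or adipsin, which cleaves factor B and is a product of fat cells, ranged from -2.51 to 3.73 in MAT males and from -2.82 to 3.88 in AGED males. Its standard error of 1.36 leaves the age difference undetermined, at -0.10 in males and -0.59 in females. The mean of 5 adipocyte genes ranged from -3.92 to -0.0456 in MAT males and from -4.18 to -0.781 in AGED males, and the lowest array of each male group was the same for Cfd and for this list.

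**Figure D4:**
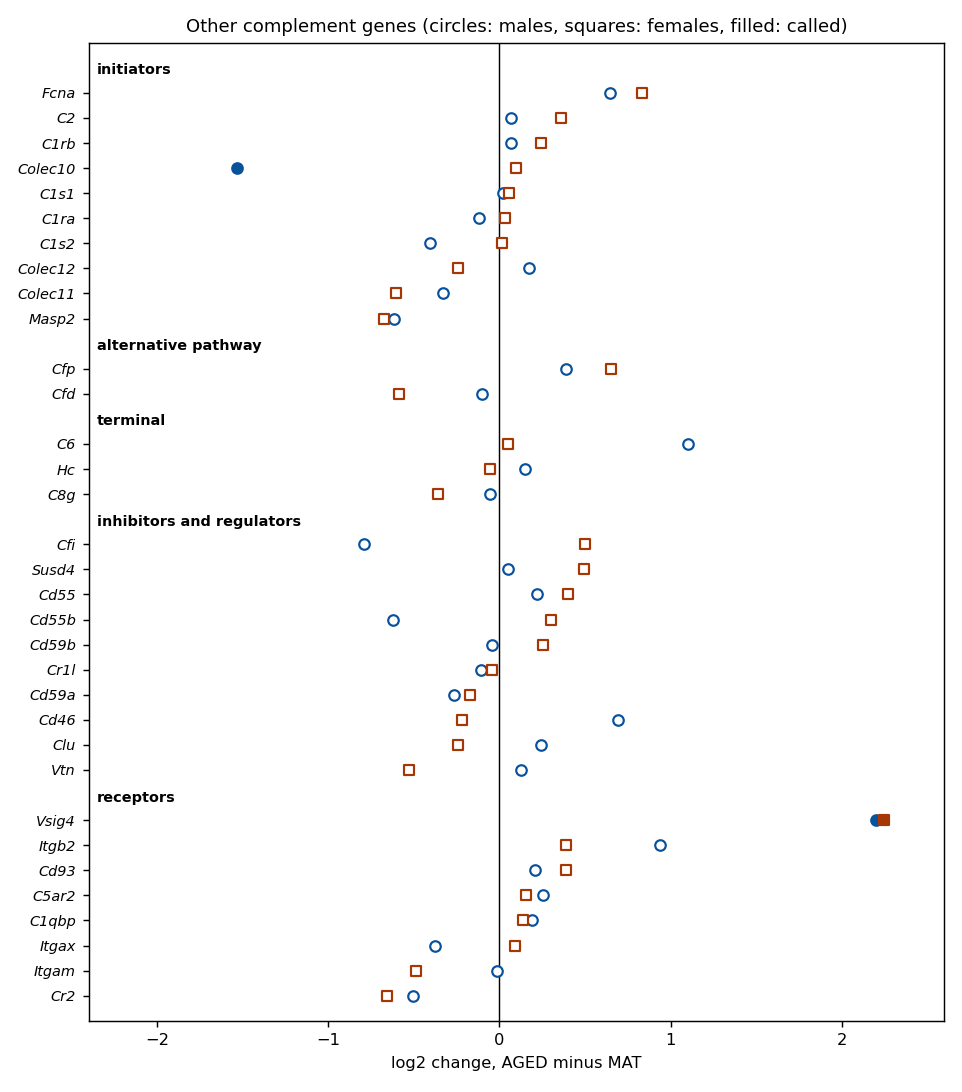
Log2 difference AGED minus MAT (x axis) of the 33 other complement genes tested (y axis, grouped by role), with circles for males and squares for females, filled where limma called the gene. Vsig4 is filled in both sexes, at 2.20 and 2.25, and Colec10 in males, at -1.53, and the others are open.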

How the data were processed

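Total RNA of the bladder body was labelled with Cy3 and hybridized to Agilent SurePrint G3 mouse arrays, 1 per mouse. The authors extracted spot intensity values with Feature Extraction, version 10.7.3.1 per the file headers and 9.1 per the labels. The deposited intensity used here is the processed signal, background-subtracted within each array and not normalized between arrays. A table of log2 values deposited by the authors holds the same signals centred per probe (its columns have medians of -0.125 to 0.290), and it served as an alternative. Its values correlated with the centred scanner values at r = 0.9998 or more.

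Control spots and 399 probe values with outlier flags were left out, and no spot was saturated. The 75th percentile was taken over the spots other than controls. Probes well above background on at least 4 of 16 arrays were kept (36972 of 55681), and the probe with the highest mean stood for a gene. Probes were named through transcript accessions of the reference annotation (GRCm38.p6), with 26582 of 55681 probes matched. The array design is on another build, so that no gene coordinates are given beside those of the promoters. Limma 3.58.1 in R 4.3.3 fitted 4 group means (12 residual degrees of freedom), and Benjamini-Hochberg adjustment ran over 26781 genes. Each array is a different mouse, and with 4 per group their number limits the precision.

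On simulated arrays of AGED and MAT males, with 26781 genes and 200 changed, limma found 75 of the 100 genes given a log2 change of 1.5 and 94 of the 100 given 2.5, and gave 0 a wrong sign. The simulated noise was independent between arrays, with the same SD of a gene in every group. Both changes were larger than the difference of any member, so these rates do not carry over to the 9 members. Genes were named by rule. These were the 9 members, the called genes and 2 largest rises and falls per sex of the wider list, Cfd and C2. The 3 genes most like C1qa, C3 and C4b were named too. So were the 2 brightest genes of the urothelial, smooth muscle, macrophage, neutrophil and interferon response lists. Genes of the mast cell, B and plasma cell, T cell, fibroblast, adipocyte and male accessory gland lists were measured as well and are not named. A gene of the wider list is not reported here. The members and lists were chosen with earlier results of these data known. The 34 alternatives covered scaling, background correction (normexp on the median spot signal, offset 50), filters, probe choice, the methods' t-test, weights per array, a trend in the variance, a block for the replicate number and each array left out. Counts of members with groups not overlapping under other settings were added after seeing the data.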

Additional observations from a re-analysis of the deposited data

Results flagged for a closer look

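Among the 36 groups of 4 arrays of the 9 members, 5 held an array that stood apart by Dixon's ratio (its gap to the nearest array over the range of the group), 13.9%, where chance gives about 1 in 20. AGED male replicate 1 was the high array for C1qa (ratio 0.901, at 3.79 against 2.68 to 2.79) and C1qb (0.907, at 3.68 against 2.14 to 2.28). MAT male replicate 4 was high for C3ar1 (0.893, at -1.72 against -2.55 to -2.46), MAT male replicate 2 for C4b (0.845, at 5.15 against 4.69 to 4.76) and MAT female replicate 3 for C5ar1 (0.857, at -1.76 against -2.62 to -2.49).

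Of the 36 groups of the named genes of the wider list, 1 held such an array (2.78%), AGED female replicate 4, which was high for C6 (0.975). Of the list means, 2 of 24 did (8.33%), AGED female replicate 4 for the macrophage list (0.980, at 1.98 against 1.23 to 1.24) and MAT female replicate 3 for the interferon response list (0.950, at 0.0908 against -0.682 to -0.644). AGED male replicate 1 had the low 75th percentile of its group (0.873).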

How the results depend on the processing

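In males, 0 of 9 members were called under every alternative run. In females, the methods' t-test without adjustment called 2 and array weights called 2 (Cfb and C5ar1 each time). Over all genes these 2 settings called 271 and 160 higher and 122 and 40 lower, against 47 and 3 in the main run. Leaving out single arrays gave 0 to 1 (C4b without AGED female replicate 3, where 44 of all genes were higher), and the other alternatives gave 0. For the wider list, the 2 male calls became 1 with normexp, 1 with array weights, 0 with the methods' adjusted t-test and 0 with each sex fitted alone, and 1 to 3 with single arrays left out. The 1 female call (Vsig4) became 0 with the methods' adjusted t-test and 0 with the replicate block, and was 0 to 1 with single arrays left out. The replicate numbers are slide columns, and samples of the same number did not deviate together (correlations of -0.148 to 0.0661 over 8 pairs of MAT and AGED arrays). The replicate block called 0 members in either sex. Members with groups not overlapping were 1 in males and 4 in females, and 1 to 2 in males with arrays left out. In females they were 3 under quantile normalization or a 75th percentile over probes well above background on all arrays. More female members separated with arrays left out, C3 and C1qc without AGED replicate 1, C3 without MAT replicate 1 and C1qc without MAT replicate 2. C5ar1 separated without replicate 3 of either age, and Serping1, lower, without AGED replicate 3 or MAT replicate 2. Normexp put C1qa in place of Serping1 in males and C5ar1 in place of C1qa in females. The male difference of the second Serping1 probe turned to 0.0629 under normexp. Other reversals were of differences that had not passed the test. Under normexp these were, in males, C4b 0.0471, Cfb 0.29, C5ar1 0.15, Cfd 0.0884, C2 -0.24 and Isg15 0.34, and Vsig4 0.27 for the sex difference. Under array weights they were C4b 0.12, C5ar1 0.0531 and Cfd 0.14 in males, and Colec10 -0.0353 and C6 -0.0688 in females. Averaging the probes of a gene turned Csf1r to 0.0440 in females, normexp turned Csf3r to 0.11 in males and quantile normalization to -0.00304 in females. With single arrays left out, male differences ranged from -0.012 to 0.50 for C1qb, -0.10 to 0.0784 for C4b, -0.42 to 0.36 for Cfb, -0.19 to 0.17 for C5ar1, -1.38 to 1.25 for Cfd, -0.0636 to 0.17 for C2, -0.67 to 0.40 for Isg15 and -1.13 to 0.36 for Oas1a. Female ones ranged from -0.15 to 0.44 for Colec10, -0.34 to 0.19 for C6 and -0.18 to 0.0724 for Csf1r, and the Vsig4 sex difference from -0.31 to 0.21. The 5 interferon response calls in females became 3 with a 75th percentile over probes well above background on all arrays, 2 with no filter on dim probes, 7 with each sex fitted alone, 8 with array weights, and 8 or 0 with the methods' t-test unadjusted or adjusted. The 2 male neutrophil calls became 3 with normexp, and 0 with each sex fitted alone or the methods' adjusted t-test. The cause of these moves was not tested.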
